A study of Arabidopsis thaliana with 8 samples.

Results

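The RNAs described here are those of the plastid genome, measured in root cells of Arabidopsis thaliana that were sorted for WOX5::GFP, a fluorescent reporter of the quiescent center (QC) in the root tip. The members are all rows of the authors' deposited table whose gene name starts with ATCG, the prefix of plastid loci. They number 130 of 33201 rows, and they are also all the rows that the table places on the plastid genome. The groups were wild type (4 libraries) and the pan mutant (4 libraries), both in the Col-0 accession and both carrying the QC marker. PAN encodes a bZIP transcription factor, and the labels do not name the mutant allele. Roots of seedlings 5 days old were protoplasted before sorting, and cDNA was amplified with a kit for low RNA input. For each row and genotype the table gives 1 pooled level in FPKM, which scales fragments to transcript length and library size, so no level has a replicate error. The q-values of the authors, adjusted over all tested rows, are the only test of a difference, and they do not give the spread between replicates. A row is called at q under 0.05.

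Plastids keep a small circular genome of bacterial descent. A bacterial-type polymerase, PEP, has its core subunits encoded there by the rpo genes and is directed by sigma factors made from nuclear genes. A phage-type polymerase, NEP, is made from nuclear genes and transcribes the rpo genes among others. In leaves the photosynthesis genes, mostly read by PEP, dominate the plastid mRNA. Root plastids do not photosynthesise, but they make starch, fatty acids and amino acids, and they keep plastid ribosomes. Most plastid genes lie in units that are read as 1 long RNA and cut into smaller ones. Most plastid mRNAs lack a stable poly(A) tail, and the priming of the cDNA is not given in the sources used here.

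Shown first are the whole coding sequences of psaJ and psbZ, shown because they are the photosystem genes with the highest wild type levels among those called and because they are so short. Capitals mark the start and stop codons. The genes lie on the plus strand of the plastid genome at 66929 to 67063 and 35751 to 35939 (RefSeq, assembly TAIR10.1).
psaJ: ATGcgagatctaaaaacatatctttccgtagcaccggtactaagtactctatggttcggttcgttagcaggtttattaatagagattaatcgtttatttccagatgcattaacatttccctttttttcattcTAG
psbZ: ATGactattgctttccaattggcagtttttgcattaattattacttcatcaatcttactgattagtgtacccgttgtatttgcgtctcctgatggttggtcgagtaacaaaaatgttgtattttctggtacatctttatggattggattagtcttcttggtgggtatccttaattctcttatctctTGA

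PEP promoters resemble bacterial ones, with an upstream box (TTGACA) and a box nearer the start (TATAAT). Windows from 250 bases before to 50 bases after the annotated gene start were searched for 86 plastid protein-coding entries of RefSeq. On either strand, TTGACA was found in 15 of them (17.4%), against 20.1% of 27443 nuclear protein-coding windows. TATAAT was found in 36 (41.9%), against 40.3% of nuclear windows. The ordered pair with a gap of 15 to 21 bases was found in 0 plastid windows and in 0.193% of nuclear ones. A looser pair on the gene's own strand, TTGACA followed after 15 to 18 bases by TANNNT, was added after these results. It was found in 3 plastid windows (3.49%), those of psbA and of both copies of ycf1, against 1.24% of nuclear windows. Annotated plastid gene starts are mostly those of coding sequences, so the plastid and nuclear windows may not cover like regions. Capitals mark the boxes, and a match describes letters only.
psbA: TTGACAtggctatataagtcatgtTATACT
ycf1: TTGACAtaagagatgtcgtttcTAGTCT
The psbA stretch lies at 1530 to 1559 on the minus strand. The ycf1 stretch lies at 129332 to 129359 on the minus strand, before the full-length gene, and again at 109290 to 109317 on the plus strand (TAIR10.1).

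Plastid RNAs had lower levels in the pan mutant in nearly every functional group, and no plastid row was called higher. The authors tested 77 of the 130 rows, and their deposited table called 28 of them lower in pan. That is 36.4%, against a background of 9.83% called lower among all 19789 tested rows. The 0 rows called higher stand against a background of 8.01%. At an unadjusted p under 0.05, 44 plastid rows were lower and 0 higher. At q under 0.01, 10 were lower and 0 higher, against backgrounds of 4.39% and 4.25%. Of the 75 tested rows with a finite log2 change, 72 were negative, and the exceptions were petD, ndhE and psaC. The median log2 change was -2.05 (quartiles -2.81 and -1.46), which is a level 4.13-fold lower in pan. Over all tested rows the median log2 change was -0.17, and 55.2% were negative. Rows could be tested only where their levels passed the authors' filter, so these figures do not speak for all 130.

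**Figure D1:**
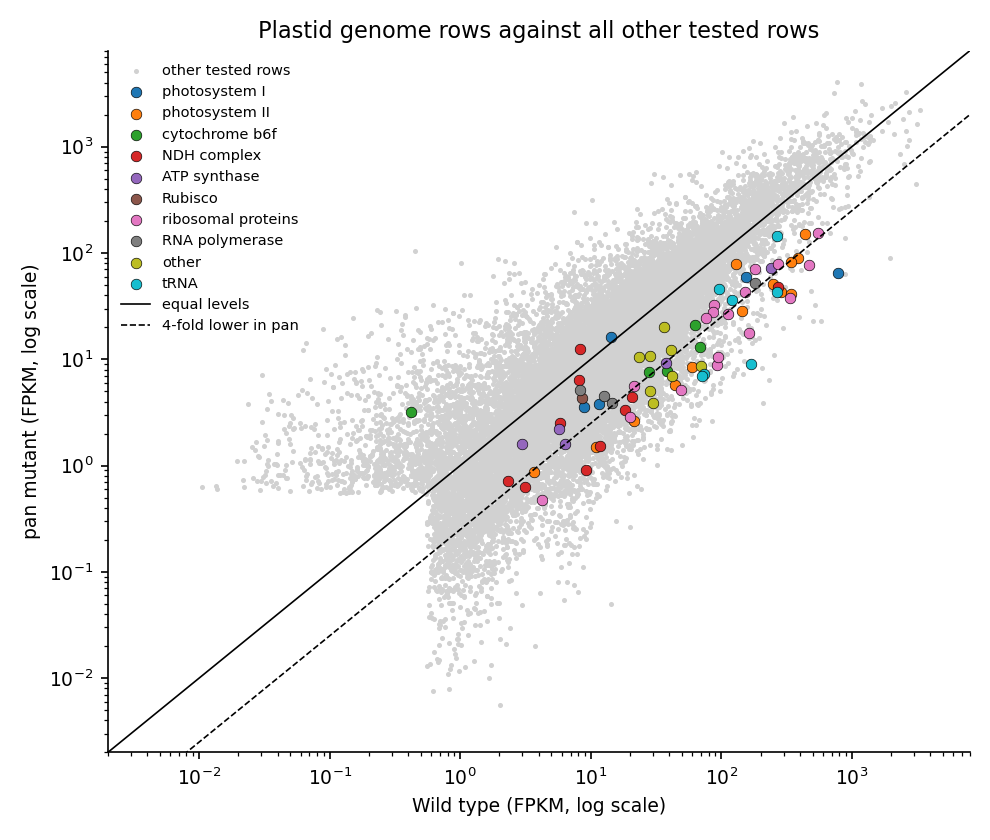
FPKM in wild type (x axis) and in the pan mutant (y axis), both on log scales, for the 75 tested plastid rows with a finite change, coloured by function, over all other tested rows in grey. The solid line marks equal levels and the dashed line a level 4-fold lower in pan. Of the 75 plastid rows, 72 lie below the solid line.

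The plastid share of all FPKM was also lower in pan. Summed over all rows but 9 that have no estimate in pan, plastid rows held 1.13% of the FPKM in wild type and 0.243% in pan, which is 4.66-fold less. Without tRNA and rRNA rows the shares were 0.970% and 0.191%. Within the plastid sum the makeup was similar for the leading groups. Ribosomal protein genes held 31.2% of it in wild type and 28.1% in pan, and photosystem II genes 27.7% and 26.8%. The share of photosystem I genes was 10.9% and 6.64%, and that of tRNAs 14.5% and 21.5%. These shares rest on few short or uncertain rows. Of the 968 FPKM of photosystem I in wild type, psaJ (135 bases) held 778. Of the 479 FPKM of tRNAs in pan, trnH held 145 and trnK, listed at 0 in wild type, held 55.6, and both values are uncertain. FPKM is scaled to length, so none of these is a share of fragments. In bulk samples, fewer cells of a type and less RNA per cell cannot be told apart.

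Calls in the whole table varied with level, so plastid rows were set beside other rows of like mean FPKM. Between 5 and 20 FPKM, 10 of 22 plastid rows were called lower (45.5%), against 14.3% of 6074 other rows. Between 20 and 100 FPKM it was 9 of 27 (33.3%) against 12.6%, and at 100 FPKM or more 9 of 19 (47.4%) against 6.89%. Between 1 and 5 FPKM, where 5.20% of other rows were called lower, the authors called 0 of 9 plastid rows, and 2 were lower and 0 higher at an unadjusted p under 0.05. The median log2 change of plastid rows in these 4 classes, from the lowest level up, was -1.69, -1.89, -2.32 and -2.05. For other rows the medians were -0.52, -0.34, 0.10 and 0.44, so the plastid median was the lower one in each class.

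**Figure D2:**
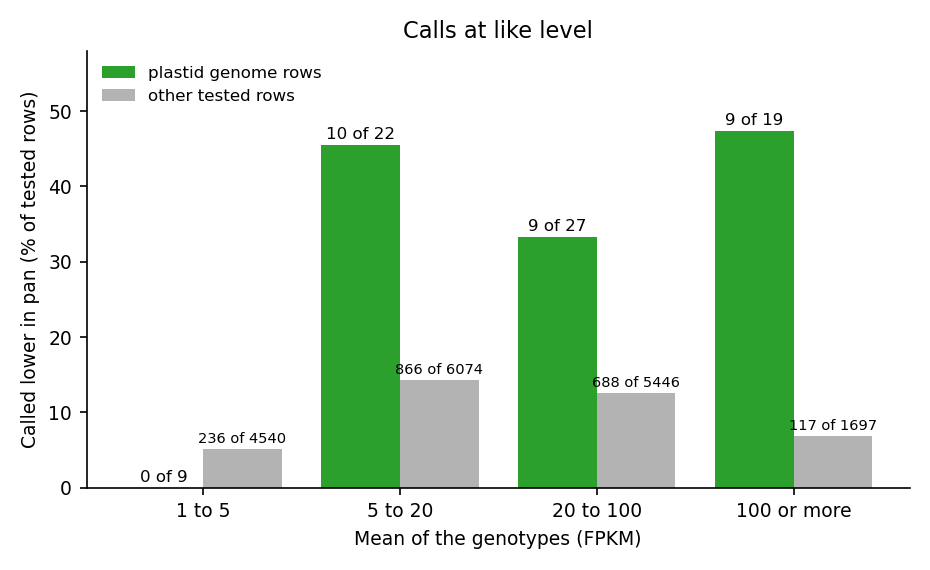
Percent of tested rows called lower in pan (y axis) in 4 classes of mean FPKM over the genotypes (x axis), for plastid rows (green) and other tested rows (grey), with counts above the bars. The plastid bars are the higher ones in the 3 classes from 5 FPKM up, at 45.5%, 33.3% and 47.4%.

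Rows of the nuclear chromosomes and of the other organelle differed from the plastid rows in these summaries, though the differences were not tested. Over chromosomes 1 to 5, 9.28% to 10.5% of tested rows were called lower, with median log2 changes of -0.19 to -0.11. Of 51 tested mitochondrial rows, 2 were called lower (3.92%) and 1 higher, and their median log2 change was -0.59. Of the 50 mitochondrial rows with a finite change, 39 were negative (78%). Their median wild type level was 3.25 FPKM, against 49.5 FPKM for the plastid rows, so these counts are not at like level. The table lists 6013 rows at 0 in wild type alone and 203 at 0 in pan alone. For plastid rows these counts are 6 and 3.

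Genes for proteins of the plastid ribosome made up the largest set of calls and also the largest group of tested rows. Of 17 tested rows among 25, 8 were called lower. That is 47.1%, beside 41.2% of tested protein-coding plastid rows and 9.83% of all tested rows. In the other groups with tested rows the share ran from 0% (tRNAs and Rubisco) to 75% (RNA polymerase). None of the 17 ribosomal rows rose, and all their log2 changes were below 0 (median -2.09). The small-subunit gene rps4 (45223 to 45828, minus strand) fell 10.6-fold, from 93.1 FPKM in wild type to 8.77 in pan (authors' deposited q = 0.00202). The joined row of rps3 and rpl22 (82826 to 83949, minus strand) fell 6.06-fold, from 470.05 to 77.5 FPKM (authors' deposited q = 0.00116). Its value cannot be split between these genes of the small and the large subunit. By the authors' deposited table, the small-subunit gene rps18 fell 9.27-fold (163 to 17.6 FPKM). The large-subunit genes rpl33 and rpl20 fell about as much by that deposited table, from 338 to 37.5 FPKM and from 93.8 to 10.5 FPKM.

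Other ribosomal rows had smaller changes or were not called. The authors' deposited table showed falls of 4.24-fold for rpl16 (112 to 26.5 FPKM) and 3.44-fold for rps19 (271 to 78.6 FPKM). The most abundant ribosomal row, rpl32, had 547 FPKM in wild type and 155 in pan and missed the threshold (authors' deposited q = 0.103). So did rps16, with 49.5 and 5.12 FPKM (log2 change -3.27, authors' deposited q = 0.0818), and rpl36, with 179.8 and 70.4 FPKM (authors' deposited q = 0.477). At an unadjusted p under 0.05, 14 of the 17 rows were lower in pan.

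The rpo genes, which encode the core of PEP, were called in 3 of 4 cases, all lower. The gene of the alpha subunit, rpoA (77901 to 78890, minus strand), fell 3.46-fold from 181 to 52.4 FPKM (authors' deposited q = 0.00116). The others encode the beta-type subunits that form the catalytic centre. Of these, rpoC2 fell 3.76-fold from 14.6 to 3.88 FPKM (authors' deposited q = 0.00340) and rpoB fell 2.82-fold from 12.7 to 4.52 FPKM (authors' deposited q = 0.0361). The remaining subunit gene, rpoC1, had 8.21 and 5.12 FPKM and was not called (authors' deposited q = 0.459). In both genotypes the FPKM of rpoA, which lies in the ribosomal protein cluster, was above that of the other rpo genes, which lie together elsewhere.

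Photosystem II splits water in green tissue, and its genes were measurable in these root cells. Of 14 rows 13 were tested, and all 13 had a log2 change below 0 (median -2.32), of which 3 were called. The small-subunit gene psbZ fell 8.27-fold from 340.01 to 41.1 FPKM (authors' deposited q = 0.0270). The gene of an inner antenna protein, psbB (72371 to 73897, plus strand), fell 7.36-fold from 11.01 to 1.496 FPKM (authors' deposited q = 0.0147). A subunit of cytochrome b559 is encoded by psbE, which fell 4.83-fold from 248 to 51.3 FPKM (authors' deposited q = 0.0247).

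Several photosystem II rows were abundant but not called. By the authors' deposited table, psbJ had 438 FPKM in wild type and 152 in pan, psbL had 389.6 and 89.8, and psbF had 342 and 82.5. Also short and not called were psbI, with 289 and 42.8 FPKM, and psbM, with 130.04 and 79.5 FPKM (authors' deposited q = 0.162 and 0.742). The joined row of psbD and psbC, for a reaction centre and an antenna protein, had 21.4 and 2.61 FPKM (log2 change -3.04, authors' deposited q = 0.0738). For psbH, a small subunit, the levels were 44.6 and 5.77 FPKM (log2 change -2.95, authors' deposited q = 0.104). The gene of the reaction centre protein D1, psbA, is among the most abundant mRNAs of leaf chloroplasts. Here it had 3.70 FPKM in wild type and 0.861 in pan (authors' deposited q = 0.148), rank 76 among plastid rows in wild type. Of its length, 47.6% has a copy of at least 95% identity in the mitochondrial and in the nuclear genome, so its value is uncertain.

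Photosystem I had the plastid row with the highest wild type FPKM and also a row with nearly equal levels. All 5 rows were tested and 2 were called, both lower (median log2 change of the 5, -1.38). The small-subunit gene psaJ fell 12.0-fold from 778 to 64.5 FPKM (authors' deposited q = 0.0295), and went from rank 1 among plastid rows in wild type to rank 11 in pan. The reaction centre gene psaB fell 3.05-fold from 11.6 to 3.81 FPKM (authors' deposited q = 0.0441). Its partner psaA had 8.85 and 3.57 FPKM, and the small-subunit gene psaI had 155 and 59.5 FPKM, neither of them called (authors' deposited q = 0.128 and 0.482). The iron-sulfur subunit gene psaC had 14.2 FPKM in wild type and 16.2 in pan (authors' deposited q = 0.929).

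The cytochrome b6f complex passes electrons between the photosystems. Of 6 rows 5 were tested and 2 were called, both lower (median log2 change -1.87). The cytochrome b6 gene petB fell 4.92-fold from 38.3 to 7.78 FPKM (authors' deposited q = 0.0188), and the cytochrome f gene petA fell 3.66-fold from 27.8 to 7.60 FPKM (authors' deposited q = 0.0356). The small genes petG, with 68.6 and 12.9 FPKM, and petL, with 63.2 and 20.95 FPKM, were not called (authors' deposited q = 0.433 and 0.560). The gene of subunit IV, petD, had 0.422 and 3.16 FPKM, the highest finite log2 change of any plastid row (2.90), and was not called (authors' deposited q = 0.350).

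The NDH complex returns electrons to the photosynthetic chain around photosystem I. Of 12 rows 10 were tested and 4 were called, all lower (median log2 change -2.26). The gene ndhH fell 10.2-fold from 9.26 to 0.907 FPKM (authors' deposited q = 0.0243), and ndhA fell 7.67-fold from 11.8 to 1.54 FPKM (authors' deposited q = 0.0215). Higher in level, ndhC fell 5.71-fold from 271 to 47.4 FPKM (authors' deposited q = 0.00202). The row named ndhF fell 5.59-fold from 18.5 to 3.30 FPKM (authors' deposited q = 0.00116), but it shares its locus with the row of the shorter ycf1 copy, and no strand of counting is stated, so that value is uncertain. The level of ndhI was 20.7 and 4.46 FPKM, which was not called (authors' deposited q = 0.0760).

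Of the 5 rows of ATP synthase, 1 was called, the joined row of atpE and atpB for the epsilon and beta subunits. It fell 3.28-fold from 239.7 to 73.0 FPKM (authors' deposited q = 0.00406). The ring subunit gene atpH had 37.9 and 9.18 FPKM, and atpI, for a membrane subunit, had 6.39 and 1.598 FPKM, neither called (authors' deposited q = 0.185 and 0.162). The genes atpF and atpA had 5.72 and 2.97 FPKM in wild type and 2.20 and 1.61 in pan by the authors' deposited table, also without a call. All of atpI has a copy of at least 95% identity in the nuclear genome, so its value is uncertain. The gene of the large Rubisco subunit, rbcL, had 8.59 and 4.36 FPKM and was not called (log2 change -0.98, authors' deposited q = 0.340). Such copies cover 42.8% of rbcL in the nuclear genome and 39.8% in the mitochondrial genome.

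Plastid genes with other roles were called in 5 of 8 tested cases among 11 rows, all lower (median log2 change -2.14). The protein of ycf1 (123884 to 129244, minus strand) has been assigned to the protein import machinery of the inner envelope. The gene fell 7.96-fold from 69.3 to 8.71 FPKM (authors' deposited q = 0.00116). The gene ccsA, needed to attach heme to cytochromes of the c type, fell 7.73-fold from 30.1 to 3.90 FPKM (authors' deposited q = 0.00524). The protease subunit gene clpP fell 6.03-fold from 42.1 to 6.99 FPKM (authors' deposited q = 0.0161). An envelope protein is encoded by cemA, which fell 3.35-fold from 41.4 to 12.4 FPKM (authors' deposited q = 0.0493).

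The intron maturase gene matK fell 2.66-fold from 28.3 to 10.7 FPKM (authors' deposited q = 0.0389). It lies in an intron of trnK, and their rows share a locus, so both values are uncertain. The trnK row was listed at 0 in wild type and at 55.6 FPKM in pan and was tested without a call (authors' deposited q = 0.415). A subunit of the carboxylase that starts fatty acid synthesis is encoded by accD, which had 36.4 and 19.9 FPKM (log2 change -0.87, authors' deposited q = 0.164). The photosystem I assembly gene ycf3 had 28.7 and 4.98 FPKM and was not called (authors' deposited q = 0.0674).

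**Figure D3:**
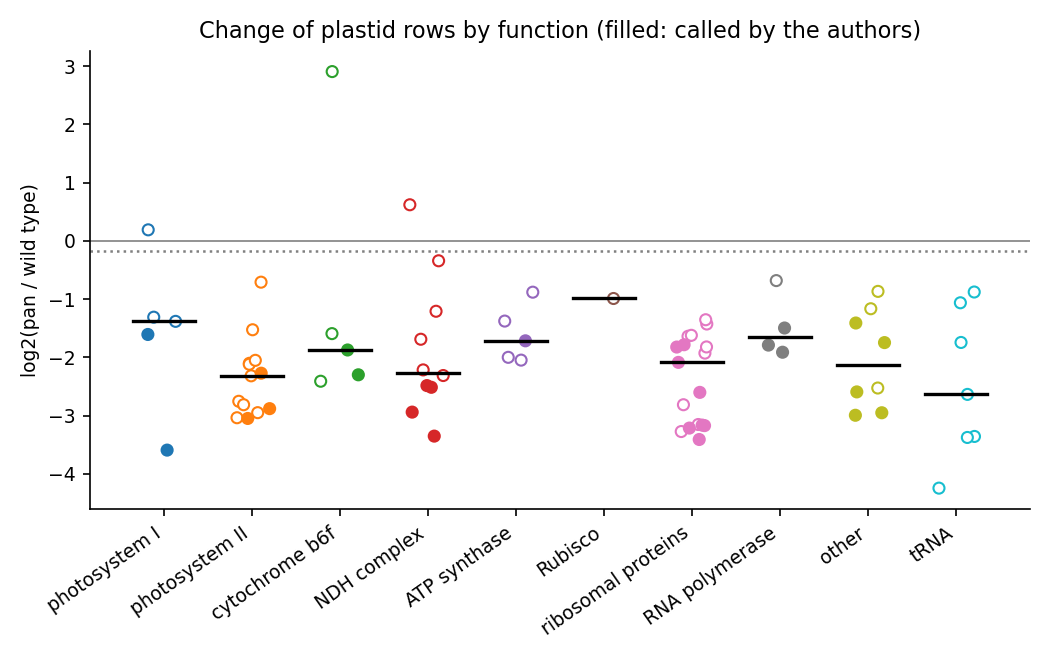
Log2 change of pan over wild type (y axis) for each tested plastid row with a finite change, by function (x axis). Filled points were called by the authors, black bars are group medians, the solid grey line is 0 and the dotted line is the median of all tested rows (-0.17). Group medians lie between -2.63 (tRNAs) and -0.98 (Rubisco, a single row), and 3 points (petD, ndhE and psaC) lie above 0.

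Transfer and ribosomal RNAs were thinly covered. Of 37 tRNA rows, 21 were listed at 0 in both genotypes and 9 were tested. The authors called 0 of the 9 in either direction, and at an unadjusted p under 0.05, 1 was lower and 0 higher, trnM, listed at 89.7 FPKM in wild type and 0 in pan. The 7 tested tRNA rows with a finite log2 change had a median of -2.63, and over all 9 tRNA rows above 0 in both genotypes, tested or not, the median was -1.74. The proline tRNA gene trnP had the lowest finite log2 change among tested plastid rows, -4.24, with 169 and 8.94 FPKM (authors' deposited q = 0.210). The histidine tRNA gene trnH had 266 and 145 FPKM, and one of the threonine tRNA genes (trnT) had 266 and 42.8 FPKM (authors' deposited q = 0.694 and 0.407). For a pair of serine tRNA genes (trnS) the authors' deposited table gave 74.3 and 71.5 FPKM in wild type and 7.25 and 6.89 in pan. All of trnH and of the second of these trnS genes has a copy of at least 95% identity in the mitochondrial genome, so those values are uncertain. All 7 rRNA rows were listed at 0 in both genotypes.

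The rows without values were mostly those of the inverted repeat, a stretch that the plastid genome carries in a pair of copies. In the genome of 154478 bases, an exact repeat of 26264 bases was found at 84171 to 110434 and at 128215 to 154478 (TAIR10.1). Of 36 rows wholly inside it, 34 were listed at 0 in both genotypes and none was tested. The exceptions, a copy each of rpl2 and ycf2, were at 0.121 and 0.00506 FPKM in wild type by the authors' deposited table. The rRNAs, ndhB, rps7, rpl2, rpl23 and ycf2 lie there, so nothing can be read about them here. Of 79 rows in the large single-copy region, 7 were listed at 0 in both genotypes, and of 11 in the small single-copy region, 0. In the large region 22 of 64 tested rows were called lower (34.4%), in the small region 3 of 10, and the median log2 change was -2.02 in each. The share called lower was 36.4% over all tested plastid rows and 9.83% over all tested rows.

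**Figure D4:**
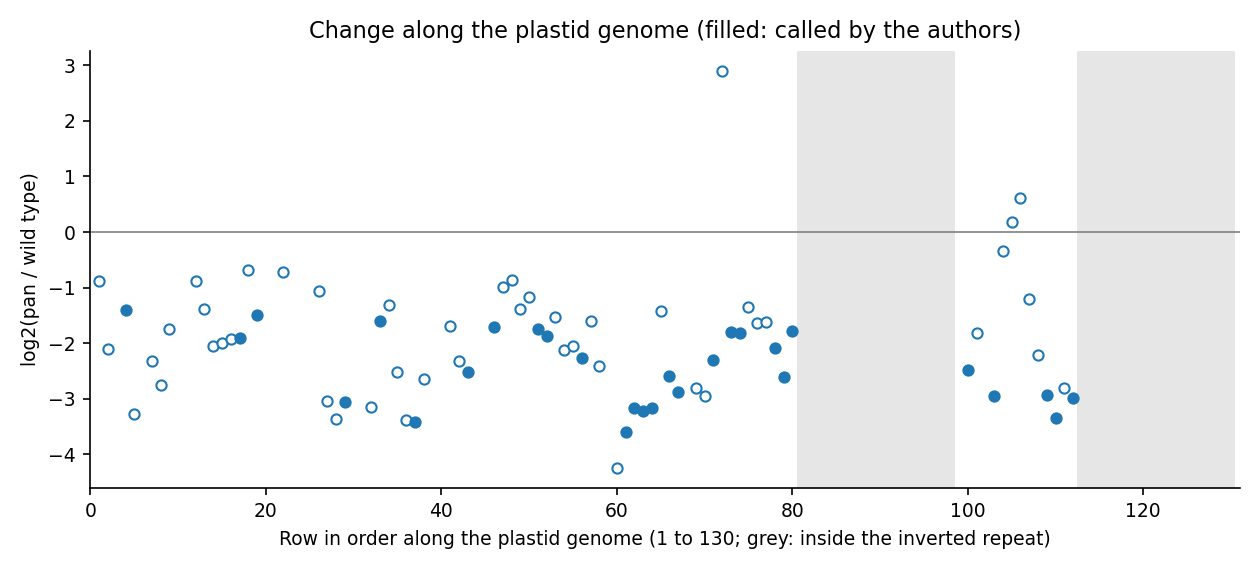
Log2 change of pan over wild type (y axis) for tested plastid rows with a finite change, in their order along the plastid genome (x axis, rows 1 to 130). Filled points were called by the authors, and grey bands mark rows wholly inside the inverted repeat, none of which was tested. The points lie below 0 along both single-copy regions, apart from petD, ndhE and psaC.

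Genes that share a transcription unit are set out here from textbook units. Their calls stand beside 41.2% of tested protein-coding plastid rows and 9.83% of all tested rows called lower. In the unit from rps19 to rpoA, 8 rows had wild type levels of 75.9 to 470.05 FPKM and log2 changes of -2.60 to -1.35, with 5 of them called. In the unit of psaJ, rpl33 and rps18 all 3 rows were called, with log2 changes of -3.59 to -3.17. The changes from psbE to psbJ lay between -2.27 and -1.53, with 1 of 4 rows called. These units had log2 changes below 0 in every row. So did the units from rpoB to rpoC2, rps2 to atpA, psaA to rps14, psaI to petA and ndhC to ndhJ.

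Other units held rows that differed more in level or change. By the authors' deposited table ndhC was at 271 FPKM in wild type, while its unit partners ndhK and ndhJ were at 3.12 and 2.33. In the unit from psbB to petD the log2 changes were -2.88 for psbB, -2.95 for psbH and -2.30 for petB, but 2.90 for petD, and the row of psbT was listed at 0 in wild type. Along the unit from ndhH to ndhD, in the direction of transcription, the authors' deposited log2 changes were -3.35 (ndhH), -2.94 (ndhA), -2.21 (ndhI), -1.21 (ndhG), 0.62 (ndhE), 0.19 (psaC) and -0.34 (ndhD). Wild type levels along this unit were 5.78 to 20.7 FPKM. In pan ndhH was at 0.907 FPKM and ndhE, psaC and ndhD were at 12.6, 16.2 and 6.40 FPKM by the authors' deposited table. The call covers ndhH and ndhA, the other 5 were not called, and the difference along the unit was not tested. It was singled out after its values were seen.

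**Figure D5:**
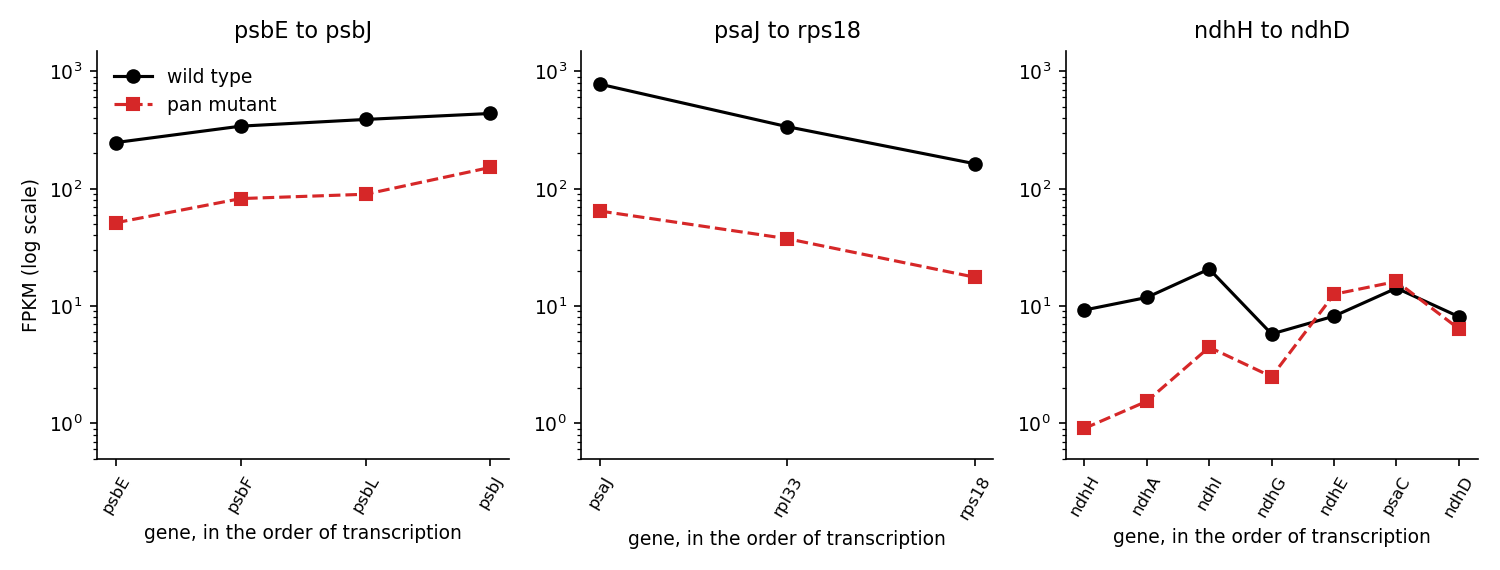
FPKM on a log scale (y axis) in wild type (black circles) and pan (red squares) for the genes of 3 transcription units in the order of transcription (x axis). Wild type lies above pan at every gene from psbE to psbJ and from psaJ to rps18. From ndhH to ndhD the genotypes start 10.2-fold apart, and pan is the higher one at ndhE and psaC.

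Genes were also grouped by the polymerase known to read them in leaves. Of 8 rows read mainly by PEP (psbA, psbB, psbD with psbC, psbE, psaA, psaB, petB and rbcL), 4 were called lower, with a median log2 change of -2.19. Of 5 tested rows read mainly by NEP (rpoB, rpoC1, rpoC2, accD and ycf1), 3 were called lower, with a median of -1.50. The 3 tested rows read by both (clpP, atpB with atpE, and ndhF) were all called lower, with a median of -2.48. That median is the value of the ndhF row, which is uncertain because of its shared locus. In the PEP class, parts of psbA and rbcL have copies outside the plastid genome. No row of these classes was called higher. Called lower were 41.2% of tested protein-coding plastid rows and 9.83% of all tested rows, and the classes are small. With a pseudocount of 5 FPKM the medians were -1.11, -0.90 and -1.65, and the difference between the classes was not tested.

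The list of nuclear genes for plastid transcription holds phage-type polymerases, sigma factors and proteins associated with PEP. Of its 21 genes, all tested, 2 were called lower (9.52%, near the background of 9.83%) and 0 higher. The count depends on the threshold. At q under 0.10, 5 of the 21 were lower and 0 higher, against a background of 13.5% lower. At an unadjusted p under 0.05, 5 were lower and 0 higher. The median log2 change of the 21 was -0.80. The gene PTAC14, for a protein bound to PEP, fell 9.54-fold from 11.5 to 1.202 FPKM (authors' deposited q = 0.00812). The gene FSD3, for an iron superoxide dismutase of the same complex, fell 3.79-fold from 22.02 to 5.80 FPKM (authors' deposited q = 0.0295). None of the 6 sigma factor genes was called, and their levels differed in both directions. By the authors' deposited table SIG1 had 9.08 FPKM in wild type and 2.70 in pan, SIG3 had 6.48 and 1.97, SIG4 had 0.634 and 0.0361, and SIG5 had 18.9 and 11.4. The levels were higher in pan for SIG2, with 1.53 and 2.79 FPKM, and SIG6, with 0.149 and 0.813 FPKM (authors' deposited q = 0.480 and 0.289). The plastid NEP gene RPOT3 had 0.589 and 1.27 FPKM (authors' deposited q = 0.446). A further 6 nuclear genes for plastid ribosomal proteins were picked by the wording of their RefSeq product names, so others may be missed. The authors called 0 of the 6, beside a background of 9.83% called lower. At an unadjusted p under 0.05, 2 were lower and 0 higher. Those with the largest changes, PRPL11 and PRPS20, had 18.6 and 26.1 FPKM in wild type and 5.10 and 7.78 in pan (authors' deposited q = 0.0603 and 0.0650).

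Nuclear photosynthesis genes were at low levels. Of 25 such genes 16 were tested and 1 was called lower (6.25%, below the background of 9.83%) and 0 higher. The called gene was PRK, a kinase of the Calvin cycle, which fell from 4.66 to 0.176 FPKM (authors' deposited q = 0.0253). The highest of the 25 in wild type were the antenna genes LHCA4, with 10.5 and 2.97 FPKM, and LHCB6, with 10.3 and 4.24 FPKM, neither called (authors' deposited q = 0.347 and 0.583). The 4 green tissue markers summed to 2.63 FPKM in wild type and 0.602 in pan, beside 8875 and 2225 FPKM over the plastid rows. Of these markers LHCB1.1 and LHCA1 were at 1.06 and 1.25 FPKM in wild type by the authors' deposited table, and LHCB2.1 was listed at 0. Their part in the plastid result was not tested.

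Markers of root cell types differed between the genotypes as well. Both QC markers fell, WOX5 from 205 to 8.27 FPKM and AGL42 from 20.8 to 1.70 FPKM by the authors' deposited table. All 4 root cap markers fell, from 45.9 to 12.95 FPKM for SMB, 148 to 40.2 for BRN1, 122 to 37.01 for BRN2 and 24.6 to 6.43 for FEZ by the authors' deposited table. All 3 root hair and epidermis markers rose, from 18.5 to 109.9 FPKM for RSL4, 63.0 to 279 for EXPA7 and 11.1 to 50.9 for MYB23 by the authors' deposited table. The summed levels in wild type and pan were 226 and 9.97 FPKM for the QC list, 339.8 and 96.6 for the root cap list, and 92.5 and 439.6 for the root hair and epidermis list. The part of these root cell types in it was not tested either. PAN itself had 19.996 FPKM in the wild type libraries and 0.265 in the pan libraries (authors' deposited q = 0.0386).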

How the data were processed

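RNA was sequenced from 4 wild type and 4 pan libraries. TopHat2 2.0.13, Cufflinks 2.1.1, Cuffdiff and the TAIR10 genome are named by the submitters' processing notes, their roles and settings not given in the sources used here. Levels were deposited by the authors as FPKM, pooled to 1 value per genotype and row, in the layout of a Cuffdiff result. The authors' log2 change is pan over wild type, without a pseudocount. Each tested row has a p-value and a q-value from the authors, and Benjamini-Hochberg adjustment over the 19789 tested rows gave the deposited q-values within 5.25e-07. The smallest deposited p-value, 5e-05, is held by 4 plastid rows. The authors' test statistic is a score and was left aside. Depth per library is unknown.

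Rows were named by position from the RefSeq annotation of TAIR10.1. Of 130 rows, 116 matched 1 gene exactly, 3 joined rows matched their genes, 4 overlapped a gene, 4 share a locus and were paired with its genes by standard naming, and 3 matched none. All 70 exactly matched coding rows that could be checked on the plastid sequence end in a stop codon. Copies elsewhere were searched with BLAST 2.17.0 (at least 95% identity over at least 50 bases). Summaries were made with Python 3.11.15, pandas 2.3.3 and SciPy 1.17.1 and tested on simulated data.

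The members, gene lists and transcription units were chosen with earlier results of these data known. The rows named are the called plastid rows (the values of 1 are not reported here), in each group the 4 with the largest change and the 2 with the highest wild type level, the 10 highest rows in each genotype, and from each nuclear list up to 4 called genes or, with none called, the 2 with the largest change. Further rows were singled out after their values were seen. Alternatives were other q thresholds, pseudocounts, filters on level and length, rescaling, and leaving out uncertain rows.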

Additional observations from a re-analysis of the deposited data

Results flagged for a closer look

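Among plastid rows that the authors did not test, 5 had a level above 0 in pan but were listed at 0 in wild type, which is why they are given here. Their pan levels in the authors' deposited table were 26.8 FPKM for trnR (ATCG00110), 8.90 FPKM for psbT (ATCG00690), 9.92 FPKM for trnQ (ATCG00060), 34.4 FPKM for trnD (ATCG00230) and 3.64 FPKM for trnfM (ATCG00320). Over the whole table, 6013 rows were listed at 0 in wild type alone and 203 in pan alone.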

How the results depend on the processing

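The 28 plastid rows called lower became 10 at q under 0.01 and 35 at q under 0.10, where the background was 13.5% lower and 10.8% higher. They were 23 over loci of at least 300 bases and 24 without rows that share a locus or join several genes. Leaving out the 4 tested rows with a copy elsewhere over more than 50% of their length left 28. None of those 4 rows was called, so this count could not change. The settings on length, shared loci and copies were chosen after seeing the data. The count called higher was 0 in every setting run. The median log2 change of all tested plastid rows lay between -2.07 (mean of at least 5 FPKM) and -1.50 (pseudocount of 5), and was -1.84 after subtracting the median change of all rows above 0 in both genotypes (-0.21). No median of a functional group or polymerase class changed sign. With a pseudocount of 5 the medians of photosystem I (-0.91), the NDH complex (-0.90), ATP synthase (-0.79), Rubisco (-0.54) and the RNA polymerase (-1.02) moved by over 1.5 times. The tRNA median moved from -2.63 (7 tested rows) to -1.74 over all 9 rows above 0 in both genotypes. No paired analysis was possible because the table holds 1 pooled value per genotype, and leaving out each replicate was not run for the same reason. Depth cannot be read from FPKM here, so levels near 0 have no stated precision.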

Other observations

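Over the 68 tested protein-coding plastid rows, levels were set against sequence features as a description across genes, which share libraries and a genome. Wild type FPKM was higher in shorter rows (Pearson r = -0.52, Spearman rho = -0.54, log2 scales), while the log2 change had little relation to length (r = 0.07, rho = 0.07). Over the 46 rows of at least 300 bases the relation of wild type level to length was weaker (r = -0.13, rho = -0.13). In those 46 rows the percent of A on the gene's strand went with the level in wild type (r = 0.42, rho = 0.48) and in pan (r = 0.36, rho = 0.40). Over all 68 rows it had little relation to level in wild type (r = 0.09, rho = 0.09) or in pan (r = 0.06, rho = 0.05). The percent of A and T, the longest run of A and the position were also tried, with weaker relations in the 46 rows. Levels in the genotypes followed each other over the 68 rows (r = 0.89, rho = 0.90).

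Short rows outside the plastid genome are set beside the small plastid genes, though not at like level. Of 142 such tested rows with a locus under 300 bases, the authors called 0 lower and 15 higher (10.6%). At an unadjusted p under 0.05, 5 were lower and 18 higher, and the median log2 change was -1.13. Of 30 tested plastid rows that short, 5 were called lower (16.7%) and 0 higher, with a median of -2.12. Over all tested rows 9.83% were called lower and 8.01% higher. The median wild type level was 9.16 FPKM for the other short rows and 155 FPKM for the short plastid rows.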
